A study of Homo sapiens with 45 samples.

Results

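The ATF4 and amino acid response is represented here by 40 human genes, given as a list of symbols and matched to the Ensembl gene IDs of the count files. They are 40 of the 60675 genes counted and 40 of the 21242 genes that passed a filter on low counts, so every member was tested. By role they comprise 6 transcription factors and cofactors, 5 stress effectors and feedback regulators, 7 amino acid transport genes, 10 enzymes of amino acid and one-carbon synthesis, 9 genes of tRNA charging and export, and 3 secreted or surface proteins. The list names genes and sets no threshold on their values, but it was chosen with earlier results of these data known.

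RNA came from HEK293F cells, a suspension line derived from human embryonic kidney cells, that were producing recombinant adeno-associated virus (rAAV) after transfection with a helper plasmid, a RepCap9 plasmid and a reporter plasmid carrying inverted terminal repeats. Poly(A) RNA was sequenced 24 h and 72 h after transfection and at 0 h, before it, in the lines AC1.112, AC1.203 and AC1.230, labelled wild type and clonal, AC1P, labelled wild type and polyclonal, and 293F, labelled wild type. Each of the 15 combinations of line and time had 3 libraries, 45 in all, and the study also set lines of high against lines of baseline rAAV output, although the labels do not say which lines those are. Each clonal line is 1 clone, so a difference between such a line and another belongs to that clone, and no label states that the 3 libraries of a group are independent cultures, so the p-values reflect variation among these libraries alone, part or all of which may be technical. All 5 lines received the same plasmids, and the libraries used here include no mock transfection. Effects of plasmids, reagent, medium exchange and culture time therefore cannot be told apart.

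ATF4 is a leucine zipper transcription factor whose protein is made mainly when translation initiation factor eIF2 is phosphorylated, for example by GCN2 when amino acids run short or by PERK when proteins misfold in the endoplasmic reticulum. General translation then slows while ribosomes pass the upstream reading frames of ATF4 mRNA, so the amount of ATF4 protein need not follow the amount of its mRNA. With C/EBP partners it binds composite C/EBP-ATF response elements and raises genes for amino acid uptake, amino acid synthesis and tRNA charging. Later it raises the stress genes DDIT3, TRIB3, CHAC1 and PPP1R15A. Protein levels, eIF2 phosphorylation and amino acid levels were not analysed here.

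The response element carries the letters TGATGNAAN, and 6 members held them on either strand within the 250 bases before an annotated start. RefSeq promoter windows (GRCh38.p14) matched 36 of the 40 members by symbol, and PSPH, SHMT2, PYCR1 and NUPR1 had no entry. The match was found in 6 of the 56 windows of members, or 10.7%, against 3.13% of all 35116 windows, and the stricter form TGATGCAAT, which lies within the looser one, was found in no member and in 0.216% of all windows. The 6 stretches are shown because they hold the letters that define the element, in the sense of the gene and with the match in capitals, and a match to the other strand reads as the reverse complement. The match lay 59 bases before the start in ASNS (chr7:97872457-97872486, minus strand), 201 in CHAC1 (chr15:40953251-40953280, plus strand), 33 in CEBPG (chr19:33374061-33374090, plus strand), 88 in SLC1A5 (chr19:46784892-46784921, minus strand), 179 in AARS1 (chr16:70289675-70289704, minus strand) and 25 in GARS1 (chr7:30594834-30594863, plus strand).
ASNS: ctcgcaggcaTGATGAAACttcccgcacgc
CHAC1: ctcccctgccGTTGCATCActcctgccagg
CEBPG: gcgcggcgtcTGATGCAACctgccggcaac
SLC1A5: aggaagtggcTGATGCAAGctgtccagggt
AARS1: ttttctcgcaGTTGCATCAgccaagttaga
GARS1: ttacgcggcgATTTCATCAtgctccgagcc
In GENCODE release 29 the match lay in an exon of the same gene in ASNS, CHAC1, SLC1A5 and GARS1, in an intron of CEBPG, and in an exon of the neighbouring gene DDX19B for AARS1. No factor binding was measured, and the matches describe letters only. These 6 genes did not respond alike, as the values below show: over the mean of lines CHAC1, CEBPG, SLC1A5 and GARS1 were called higher at 24 h, and ASNS and AARS1 lower.

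Libraries held 24727028 to 59837051 counts each, with a median of 39247411. Levels are in CPM, the usual counts-per-million unit, computed on scaled library totals, and "called" means a Benjamini-Hochberg adjusted p under 0.05 in edgeR's quasi-likelihood test over all genes tested. Of the kidney development markers EYA1 had 9.34 to 45.1 CPM, and PAX8 reached at most 0.570 CPM. The 5 haematopoietic markers summed to 0.927 to 3.84 CPM, with PTPRC and CD3E at a median of 0, and the 5 fibroblast markers summed to 13.7 to 153 CPM, with COL1A2 at a median of 0. In bulk RNA, fewer cells with a transcript and less transcript per cell cannot be told apart.

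Before transfection the 40 members spanned a wide range of abundance. Per kilobase of exon, mean levels at 0 h over the 5 lines ran from 153 CPM per kb for SLC1A5, the glutamine carrier ASCT2, to 0.337 CPM per kb for VLDLR, a lipoprotein receptor. ATF4 itself had the level next below SLC1A5 at 139.99 CPM per kb, followed by the glutamyl-prolyl-tRNA synthetase EPRS1 at 68.1. The 5 stress effectors were spread over the middle and lower part of this range, with 22.3 CPM per kb for PPP1R15A, 17.2 for SESN2, 16.46 for DDIT4, 5.75 for TRIB3 and 1.22 for CHAC1. DDIT3 had 3.56, STC2 3.22 and GDF15 2.21 CPM per kb.

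At 24 h the effectors and transport genes rose while the synthesis members divided. Over the mean of the 5 lines, 25 members were called higher and 10 lower than at 0 h, and 5 were not called. Among all genes tested 25.8% were called higher and 27.6% lower. The median log2 fold change was 0.14 over the members and -0.006 over all genes tested. A change of at least 2-fold was called for 2 members, both higher, where 2.46% of all genes were that much higher and 1.31% that much lower. All 5 stress effectors and all 7 transport genes rose, as did 4 of the 6 factors, 5 of the 9 tRNA genes and 3 of the 10 synthesis genes. Lower were 5 synthesis genes, 3 tRNA genes, 1 factor and 1 secreted protein.

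At 72 h the effectors were still higher than at 0 h, and most synthesis genes were lower. Over the mean of lines 19 members were called higher and 12 lower than at 0 h, against 30.3% and 29.5% of all genes, and the median log2 fold change was 0.02 over members and 0.03 over all genes tested. At least 2-fold higher were 3 members and 2-fold lower none, with 6.37% and 0.226% of all genes. All 5 effectors and all 3 secreted or surface proteins rose and 5 of 6 factors rose, but 7 of the 10 synthesis genes and 4 of the 9 tRNA genes fell, and 1 of each rose. At 72 h relative to 24 h, 11 members were called higher and 22 lower, against 29.3% and 28.7% of all genes. At least 2-fold higher in that step were 2 members and lower none, with 4.38% and 0.245% of all genes. In that step GDF15 (1.83), NUPR1 (1.05), CBS (0.26), DDIT3 (0.20) and TRIB3 (0.15) had the highest log2 fold changes, and SLC1A4 (-0.52), SLC7A5 (-0.33), SLC1A5 (-0.30), SLC7A1 (-0.29) and PSAT1 (-0.28) the lowest. ASNS rose slightly in it (0.14, SE 0.025), and ATF4 (-0.066, SE 0.021) and CHAC1 (-0.21, SE 0.076) fell. The calls of ATF4 and CHAC1 in this step both ended without AC1.203 and without 293F, and that of DDIT3 ended without AC1.203 (0.18, adjusted p = 0.0542) and without AC1P (0.12, adjusted p = 0.135). Without 293F the mean was -0.011 for ATF4 (adjusted p = 0.73) and -0.040 for CHAC1 (adjusted p = 0.749). The comparisons at 24 h and at 72 h share the 0 h libraries, so their values are given side by side and not correlated.

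**Figure D1:**
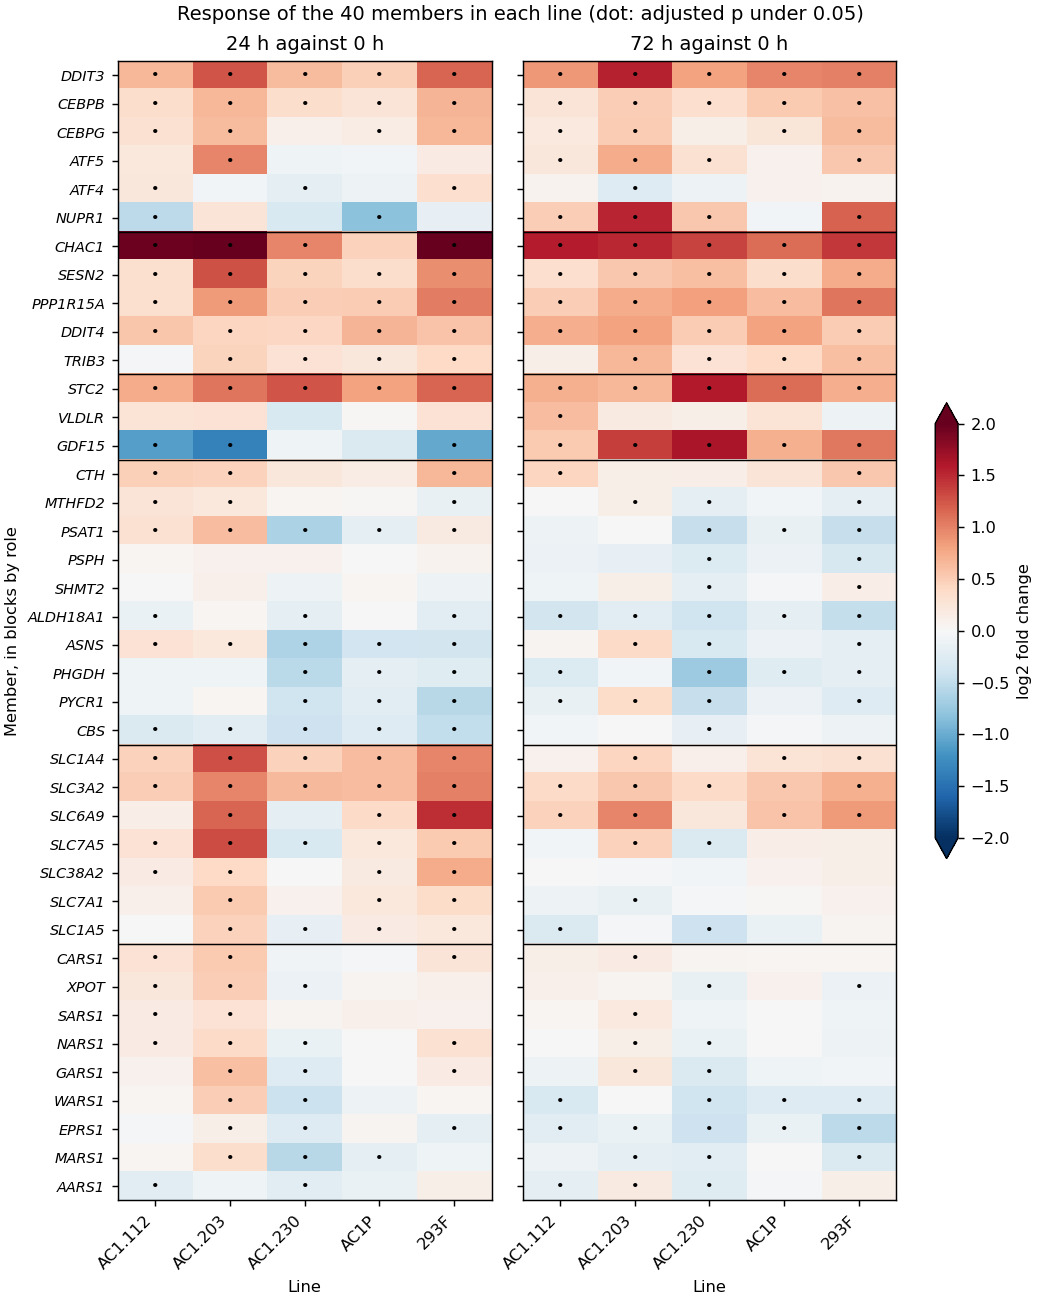
Heat map of log2 fold changes against 0 h at 24 h (left) and 72 h (right) for the 40 members (rows, in blocks by role) in each of the 5 lines (columns), with colour limited to changes of 2 on the log2 scale in either direction and a dot where the adjusted p is under 0.05. AC1.203 holds 29 members called higher at 24 h, and AC1.230 holds 16 called lower.

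ATF4 mRNA was not called over the mean of lines, and it was called in opposite directions in different lines. It was measured at 278 to 451 CPM with a median of 352 at 24 h, against 265 to 512 CPM with a median of 336 at 0 h (n = 15 libraries each), and the ranges overlapped almost completely. ATF4 (ENSG00000128272, chromosome 22, 39519695 to 39522685, GRCh38) was not called over the mean of lines at 24 h (log2 fold change 0.041, SE 0.021, adjusted p = 0.101) or at 72 h (log2 fold change -0.026, SE 0.021, adjusted p = 0.31). In 293F it had 327, 332 and 353 CPM at 24 h, against 265, 269 and 269 CPM at 0 h. All 3 later libraries lay above all earlier ones, and the gene rose (0.34, SE 0.048). AC1.230 had 352, 343 and 334 CPM at 24 h, against 414, 391 and 377 CPM at 0 h, a fall with no overlap (-0.20, SE 0.048). The interaction of line and time at 24 h was called for ATF4 (F test, adjusted p = 4.01e-10).

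DDIT3, which codes for CHOP, the factor of prolonged stress and apoptosis, rose in every line. Levels ran from 4.21 to 16.9 CPM with a median of 8.07 at 24 h, against 2.24 to 7.98 CPM with a median of 3.85 at 0 h, and they were 5.44 to 16.1 CPM (median 8.80) at 72 h. The overall ranges overlapped, but within each line the later libraries lay above the 0 h libraries at both times. Over the mean of lines DDIT3 (ENSG00000175197, chromosome 12, 57516588 to 57521737) was 1.79-fold higher at 24 h (log2 fold change 0.84, SE 0.069, adjusted p = 4.2e-16) and 2.05-fold higher at 72 h (log2 fold change 1.04, SE 0.069, adjusted p = 6.06e-20). Its locus overlaps MARS1 and MBD6 on the other strand, and the strand setting of the counting is not given in the sources used here, so the counts of DDIT3 are uncertain. MARS1 fell at 24 h (-0.089, SE 0.021) while MBD6 rose by 0.20 (SE 0.025), and the part of either in the counts of DDIT3 was not tested.

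CEBPB and CEBPG, the leucine zipper partners of ATF4, rose at both times. CEBPB had 19.2 to 38.4 CPM (median 25.1) at 24 h, against 15.48 to 24.2 CPM (median 18.4) at 0 h, and was higher in all 5 lines (mean 0.46, SE 0.034). CEBPG had 69.99 to 94.3 CPM (median 81.3) at 24 h, against 49.04 to 74.8 CPM (median 66.98) at 0 h (mean 0.37, SE 0.023), and was called higher in 4 of 5 lines at each time. At 72 h their log2 fold changes over the mean of lines were 0.44 and 0.34. CEBPB lies opposite CEBPB-AS1, which held 1918 counts in all, against 42559 for CEBPB, and changed by 0.37 at 24 h (SE 0.15) and by 0.86 at 72 h (SE 0.14), so with the strand setting not given the counts of CEBPB are uncertain. ATF5, a related factor that is also controlled by upstream reading frames, rose by 0.24 (SE 0.038) at 24 h, and only AC1.203 was called at that time (0.98, adjusted p = 1.53e-14). Without AC1.203 the mean for ATF5 was 0.063 (adjusted p = 0.19), and by 72 h ATF5 was higher in 4 of 5 lines (mean 0.38, SE 0.038), although the call in AC1.112 ended in 40 of the alternatives tried. Its locus overlaps NUP62 on the other strand, which changed by -0.013 at 24 h (SE 0.021, adjusted p = 0.635) and by -0.14 at 72 h (SE 0.021, adjusted p = 2.15e-08). NUP62 held 226887 counts in all, against 43373 for ATF5. With the strand setting not given, the counts of ATF5 are uncertain.

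NUPR1, a small chromatin cofactor induced by stress, moved in opposite directions at the later times. Its levels were 0.694 to 9.496 CPM (median 4.46) at 24 h and 0.616 to 11.6 CPM (median 6.61) at 0 h, with the lines far apart. Over the mean of lines it fell at 24 h (log2 fold change -0.31, SE 0.080, adjusted p = 0.000656), a call that ended without AC1P (-0.18, adjusted p = 0.115). At 72 h it rose (log2 fold change 0.74, SE 0.072, adjusted p = 7.15e-14), and it was 2.07-fold higher at 72 h than at 24 h (1.05, SE 0.072).

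**Figure D2:**
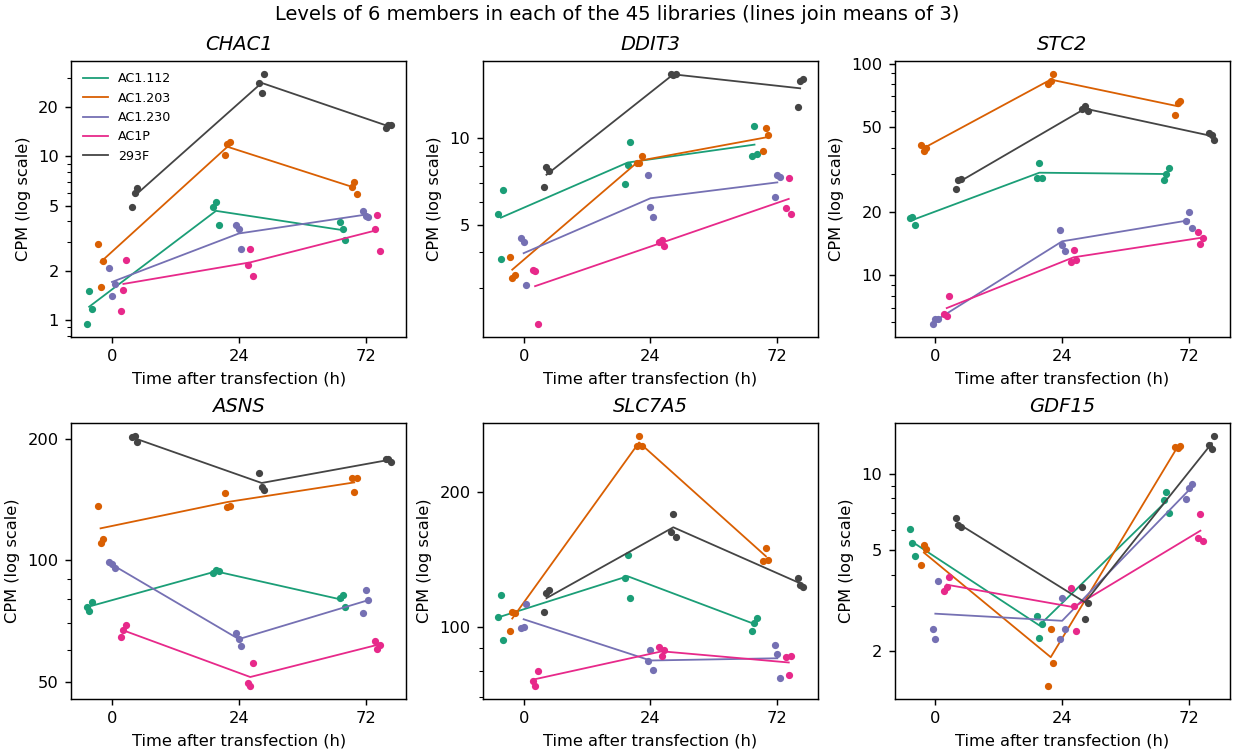
Level in CPM (log axis) of CHAC1, DDIT3, STC2, ASNS, SLC7A5 and GDF15 against time after transfection in h, with 1 point per library, 1 colour per line and lines joining the means of 3 libraries. GDF15 is lower at 24 h than at 72 h in every line, and 293F holds the highest CHAC1 values at 24 h, 24.3 to 32.1 CPM.

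Of all members CHAC1 rose most over the mean of lines. CHAC1, an enzyme that degrades glutathione (ENSG00000128965, chromosome 15, 40952962 to 40956519), had 1.85 to 32.1 CPM with a median of 4.88 at 24 h, against 0.940 to 6.38 CPM with a median of 1.65 at 0 h. It was 3.04-fold higher at 24 h (log2 fold change 1.61, SE 0.085, adjusted p = 2.57e-23) and 2.62-fold higher at 72 h (log2 fold change 1.39, SE 0.085, adjusted p = 1.12e-20). In 293F it had 28.1, 24.3 and 32.1 CPM at 24 h, against 4.91, 5.94 and 6.38 CPM at 0 h, and in AC1.203 it had 10.1, 11.9 and 12.3 CPM at 24 h, against 2.89, 1.59 and 2.27 CPM at 0 h. Neither line had overlapping libraries. In AC1P the values were 2.17, 2.72 and 1.85 CPM at 24 h, against 1.13, 1.52 and 2.31 CPM at 0 h, which overlapped and were not called (0.47, adjusted p = 0.108). By 72 h the log2 fold change of CHAC1 lay between 1.12 in AC1P and 1.57 in AC1.112, and a difference between lines was not called at that time (adjusted p = 0.72).

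SESN2, which codes for the leucine sensor Sestrin2 that restrains mTORC1, and DDIT4, which codes for the mTORC1 inhibitor REDD1, rose in all 5 lines at both times. SESN2 had 60.4 to 154 CPM (median 90.7) at 24 h, against 42.2 to 78.7 CPM (median 63.05) at 0 h (mean 0.66, SE 0.025). In AC1.203 SESN2 had 138, 145 and 154 CPM at 24 h, against 52.51, 63.05 and 64.3 CPM at 0 h, with no overlap and a log2 fold change of 1.28. AC1.112 gave a smaller one of 0.32. The lines differed in their SESN2 response at 24 h (adjusted p = 1.14e-17). DDIT4 had 31.4 to 75.02 CPM (median 36.4) at 24 h, against 20.3 to 57.2 CPM (median 24.3) at 0 h, and its log2 fold changes over the mean of lines were 0.53 (SE 0.027) at 24 h and 0.67 (SE 0.027) at 72 h.

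PPP1R15A codes for GADD34, which directs a phosphatase to eIF2 and so closes the feedback loop. It had 102 to 139.6 CPM with a median of 112 at 72 h, against 55.9 to 92.6 CPM with a median of 69.7 at 0 h, and all 15 later libraries lay above all 15 earlier ones. The rise was 1.56-fold at 24 h (log2 fold change 0.64, SE 0.026, adjusted p = 4.19e-31) and 1.67-fold at 72 h (log2 fold change 0.74, SE 0.026, adjusted p = 3.9e-34). TRIB3, a pseudokinase that binds ATF4 and dampens its activity (ENSG00000101255, chromosome 20, 362835 to 397559), rose less. It had 11.97 to 47.7 CPM (median 21.4) at 24 h, against 9.87 to 35.50 CPM (median 20.6) at 0 h (mean 0.27, SE 0.033), and its mean log2 fold change at 72 h was 0.41 (SE 0.033). It was called higher in 4 of 5 lines at each time and not in AC1.112 (-0.025, adjusted p = 0.86 at 24 h and 0.12 (adjusted p = 0.21) at 72 h).

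Of the secreted and surface members, STC2 and GDF15 followed different courses. STC2, a secreted glycoprotein of the stress response (ENSG00000113739, chromosome 5, 173314713 to 173329503), rose in all 5 lines at both times. It had 11.53 to 89.8 CPM (median 28.9) at 24 h, against 5.87 to 41.3 CPM (median 18.7) at 0 h (2.01-fold, log2 fold change 1.01, SE 0.036, adjusted p = 1.51e-33), and was 1.95-fold higher at 72 h (0.96, SE 0.036). In AC1.230 STC2 had 5.87, 6.23 and 6.19 CPM at 0 h, 16.4, 13.9 and 13.1 CPM at 24 h and 18.1, 19.8 and 16.7 CPM at 72 h, with the later times apart from 0 h.

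GDF15, a circulating stress cytokine (ENSG00000130513, chromosome 19, 18374731 to 18389176), had 2.22 to 6.68 CPM with a median of 4.74 at 0 h, 1.45 to 3.58 CPM with a median of 2.56 at 24 h and 5.41 to 14.2 CPM with a median of 8.81 at 72 h. All 15 libraries at 72 h lay above all 15 at 24 h. Over the mean of lines it fell at 24 h (log2 fold change -0.77, SE 0.073, adjusted p = 3.36e-14), was 2.09-fold higher at 72 h than at 0 h (log2 fold change 1.06, SE 0.067, adjusted p = 1.15e-21) and 3.57-fold higher at 72 h than at 24 h (1.83, SE 0.070). The fall at 24 h was called in AC1.112 (-1.10), AC1.203 (-1.36) and 293F (-1.03). AC1.230 gave -0.089 (adjusted p = 0.757) and AC1P -0.28 (adjusted p = 0.232), neither called, and the interaction at 24 h was called (adjusted p = 8.06e-06). VLDLR, a lipoprotein receptor induced by ATF4 under stress, was not called at 24 h (0.12, adjusted p = 0.28) and rose slightly at 72 h (log2 fold change 0.22, SE 0.088, adjusted p = 0.0281), a call that ended in 12 of the alternatives, most of which left out a library.

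All 7 transport genes rose over the mean of lines at 24 h, and 4 of them were still called higher than 0 h at 72 h. Among these 4, SLC7A5 was called higher in 1 line and lower in 1 other at 72 h, and its mean of 0.070 was -0.028 without AC1.203 (adjusted p = 0.532) and lost its call in 36 of the alternatives. SLC3A2, the heavy chain that carries SLC7A5 and its relatives to the membrane, had 160.1 to 276 CPM with a median of 194 at 24 h, against 95.51 to 146 CPM with a median of 124 at 0 h. No library at 24 h overlapped the 0 h range, and the rise was 1.68-fold (log2 fold change 0.75, SE 0.026, adjusted p = 1.56e-33). SLC1A4, a carrier of alanine, serine and cysteine, had 20.99 to 38.9 CPM (median 34.54) at 24 h, against 14.1 to 28.7 CPM (median 18.02) at 0 h, and rose in all 5 lines by 1.69-fold (log2 fold change 0.76, SE 0.036, adjusted p = 1.58e-27). At 72 h SLC1A4 was lower than at 24 h by 1.44-fold, the strongest fall of any member in that step (-0.52, SE 0.035).

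SLC6A9, a glycine transporter, had 3.15 to 15.7 CPM (median 4.45) at 24 h, against 2.53 to 5.94 CPM (median 4.28) at 0 h (mean 0.59, SE 0.058). Its rise was largest in 293F, at 13.8, 14.7 and 15.7 CPM at 24 h, against 4.76, 5.28 and 5.94 CPM at 0 h (1.47), and it was not called in AC1.112 (0.13, adjusted p = 0.521) or AC1.230 (-0.17, adjusted p = 0.352). SLC6A9 overlaps CCDC24 on the other strand, which was not called at 24 h (-0.063, adjusted p = 0.425). CCDC24 held 10326 counts in all, against 10539 for SLC6A9, so with the strand setting not given the counts of SLC6A9 are uncertain. SLC7A5, the large neutral amino acid carrier LAT1, had 253, 267 and 253 CPM at 24 h in AC1.203, against 97.8, 108 and 107 CPM at 0 h, a 2.47-fold rise. In AC1.230 it had 83.8, 88.7 and 80.2 CPM at 24 h, against 99.6, 100.1 and 112 CPM at 0 h, and fell (-0.30, SE 0.068). These opposite responses were part of an interaction with an adjusted p of 3.22e-17.

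The cationic amino acid carrier SLC7A1, the glutamine carrier SLC38A2 (SNAT2) and SLC1A5 rose over the mean of lines at 24 h, by 0.26 (SE 0.024), by 0.30 (SE 0.023) and by 0.13 (SE 0.024). SLC1A5 had 440.48 to 749.6 CPM (median 563) at 24 h, against 392 to 586 CPM (median 520.3) at 0 h, with overlapping ranges, and its mean was not called without AC1.203 (0.057, adjusted p = 0.0671). Within lines SLC1A5 was called higher in 3 and lower in 1 at 24 h. At 72 h SLC1A5 had fallen below its 0 h level (-0.17, SE 0.024), while SLC7A1 (-0.036, adjusted p = 0.2) and SLC38A2 (0.026, adjusted p = 0.331) were not called. Of the 7 transport genes 6 were lower at 72 h than at 24 h, SLC6A9 being the exception (0.021, adjusted p = 0.769).

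ASNS, asparagine synthetase and the best known target of the amino acid response (ENSG00000070669, chromosome 7, 97852118 to 97872542), went in opposite directions in different lines. In AC1.112 it had 93.1, 94.52 and 94.3 CPM at 24 h, against 76.8, 75.04 and 78.7 CPM at 0 h, a rise with no overlap (0.29, SE 0.055). AC1.203 had 147, 136 and 136 CPM at 24 h, against 137, 110.47 and 113 CPM at 0 h, a rise (0.22, SE 0.054) although the lowest later library lay below the highest earlier one. It fell in AC1.230, with 65.9, 63.96 and 61.4 CPM at 24 h, against 98.9, 98.1 and 96.03 CPM at 0 h (-0.62, SE 0.055). Falls without overlap were also seen in AC1P (-0.38, SE 0.056) and 293F (-0.37, SE 0.053). The mean over lines at 24 h was -0.17 (adjusted p = 1.26e-08), and the interaction was called at 24 h (adjusted p = 5.26e-17) and at 72 h (adjusted p = 2.05e-09). Within lines ASNS was called higher in 1 and lower in 2 at 72 h.

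PSAT1, the aminotransferase of serine synthesis, had the smallest interaction p of the members at 24 h (adjusted p = 8.57e-23). In AC1.203 it had 238, 234 and 243 CPM at 24 h, against 148, 158 and 163 CPM at 0 h (0.61, SE 0.048), and in AC1.230 it had 65.3, 64.2 and 61.8 CPM at 24 h, against 98.97, 96.7 and 101 CPM at 0 h (-0.63, SE 0.049). Neither line overlapped between times. The mean over lines for PSAT1 was 0.053 at 24 h, with its direction set by the lines averaged: it was -0.083 without AC1.203 (adjusted p = 0.00278) and -0.0044 without AC1.112 (adjusted p = 0.916). At 72 h PSAT1 was lower (log2 fold change -0.23, SE 0.022, adjusted p = 1.44e-14).

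PHGDH, the first enzyme of serine synthesis, had 161 to 238 CPM (median 193) at 24 h, against 187 to 289 CPM (median 221) at 0 h, and fell over the mean of lines at 24 h (-0.22, SE 0.023) and at 72 h (-0.30, SE 0.023). In AC1.230 PHGDH had 171, 167 and 171 CPM at 72 h, against 276, 278 and 289 CPM at 0 h, the deepest fall of any line (-0.73, SE 0.052). The phosphatase PSPH was not called at 24 h (0.053, adjusted p = 0.143) and fell at 72 h (-0.20, SE 0.031). SHMT2 turns serine into glycine and a one-carbon unit in mitochondria. Over the mean of lines SHMT2 was called neither at 24 h (-0.012, adjusted p = 0.71) nor at 72 h (-0.0095, adjusted p = 0.76). Within lines it was called higher in 1 and lower in 1 other at 72 h. Its interaction of line and time was called at 72 h (F test, adjusted p = 0.00126). MTHFD2, which oxidises the one-carbon unit, rose over the mean of lines by 0.078 (SE 0.020) at 24 h and changed by -0.064 (SE 0.020) at 72 h. The call for MTHFD2 at 24 h ended without AC1.112 or AC1.203, and that at 72 h without AC1.230 or 293F. Within lines MTHFD2 was called higher in 2 and lower in 1 at 24 h, and higher in 1 and lower in 2 at 72 h.

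The proline enzymes fell. PYCR1, which makes the last step of proline synthesis, had 58.55 to 109.7 CPM (median 70.55) at 24 h, against 56.4 to 156 CPM (median 92.47) at 0 h (log2 fold change -0.25, SE 0.025, adjusted p = 1.63e-13). In 293F it had 101, 101 and 109.7 CPM at 24 h, against 151, 156 and 150.4 CPM at 0 h, with no overlap (-0.55, SE 0.054). In AC1.203 PYCR1 was not called at 24 h (0.035, adjusted p = 0.665) and was higher at 72 h (0.36, SE 0.056), and its interaction p at 72 h was the smallest of the members (adjusted p = 3.95e-11). ALDH18A1, which feeds the pathway, fell in all 5 lines at 72 h, at 131 to 206 CPM (median 166) against 169 to 263 CPM (median 189) at 0 h (log2 fold change -0.33, SE 0.021, adjusted p = 5.74e-21).

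The transsulfuration pair went in opposite directions over the mean of lines at 24 h. CTH, cystathionine gamma-lyase, had 5.12 to 15.9 CPM (median 7.37) at 0 h, 5.79 to 21.04 CPM (median 9.22) at 24 h and 5.68 to 16.7 CPM (median 9.14) at 72 h. Over the mean of lines it rose by 0.39 (SE 0.045) at 24 h and by 0.30 (SE 0.045) at 72 h. Within lines CTH was called higher in 3 of 5 at 24 h and in 2 of 5 at 72 h, and lower in none. CBS, cystathionine beta-synthase, fell in all 5 lines at 24 h, at 59.7 to 156 CPM (median 101) against 83.7 to 175 CPM (median 123) at 0 h (log2 fold change -0.34, SE 0.020, adjusted p = 3.29e-23). At 72 h CBS was called lower in 1 line only. It has a near-identical copy, CBSL, which held 190643 counts in all against 208944 for CBS and gave the same log2 fold change at 24 h (-0.34, SE 0.020), so the counts of CBS are uncertain.

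The tRNA genes rose or fell by small amounts on average. At 24 h CARS1 (0.20), XPOT (0.15), SARS1 (0.14), NARS1 (0.14) and GARS1 (0.13) rose, AARS1 (-0.10), MARS1 (-0.089) and EPRS1 (-0.056) fell, and WARS1 was not called (0.0085, adjusted p = 0.819). XPOT exports tRNA from the nucleus, and the others charge tRNA with the amino acid named by their first letter, EPRS1 with 2 of them. At 24 h 8 of the 9 were called higher in AC1.203 and none lower, where 21% and 20.8% of all genes were. In AC1.230 none was called higher and 7 lower, where 12.1% and 14.7% of all genes were. The call of EPRS1 in AC1.203 ended in a fit of that line alone and without either of 2 libraries. In AC1.230 that of NARS1 ended in 5 of the alternatives, among them thinning, no filter on low counts and a fit of that line alone, and that of XPOT ended in 36. GARS1 in AC1.203 had 229, 227 and 237 CPM at 24 h, against 149, 147 and 159 CPM at 0 h (0.61, SE 0.044). GARS1 in AC1.230 had 133, 135 and 136 CPM at 24 h, against 158, 155 and 167 CPM at 0 h (-0.25, SE 0.044). The later libraries lay wholly above the earlier ones in AC1.203 and wholly below them in AC1.230. GARS1 and WARS1 overlap GARS1-DT and WDR25 on the other strand, so their counts are uncertain too. GARS1-DT held 11908 counts in all, against 270118 for GARS1, and changed by -0.15 at 24 h (SE 0.060). At 72 h EPRS1 was lower in all 5 lines (log2 fold change -0.28, SE 0.019, adjusted p = 3.32e-20) and WARS1 in 4 of 5 (-0.25, SE 0.026). The call for EPRS1 at 72 h ended in AC1P without 72 h replicate 2, and in AC1.203 without 0 h replicate 3 or 72 h replicate 3, with no filter on low counts (-0.11, adjusted p = 0.126) and in a fit of that line alone (-0.12, adjusted p = 0.139). Over the mean of lines at 24 h, the calls for GARS1 ended without AC1.203 and those for EPRS1 without AC1.230 or 293F or with no filter on low counts, and MARS1 gave 0.027 without AC1.230 (adjusted p = 0.309).

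**Figure D3:**
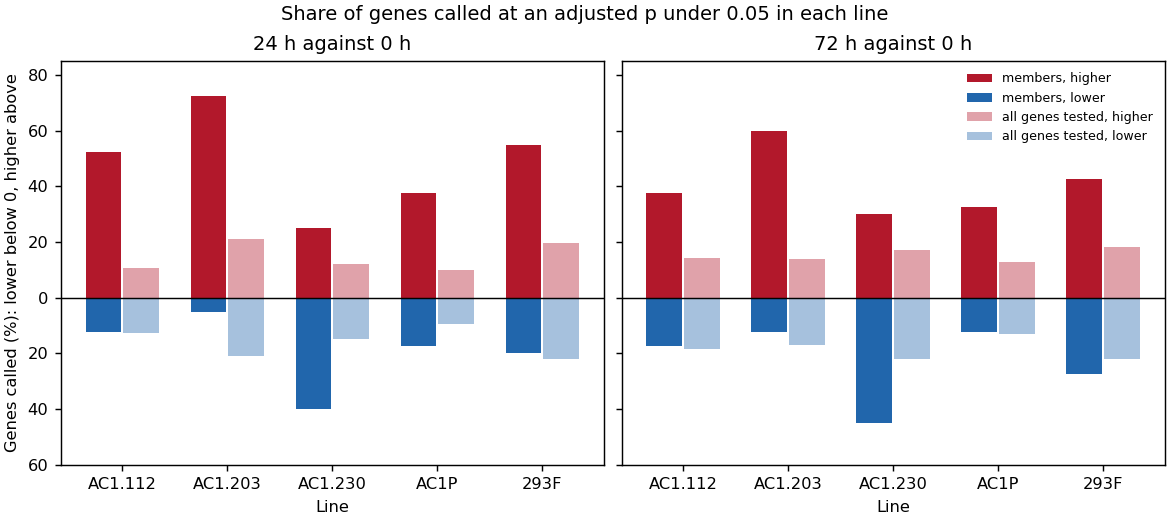
Bars give the share of genes called higher (above 0) or lower (below 0) than 0 h in each line at 24 h (left) and 72 h (right), in percent, for the members (dark) and all genes tested (light). In AC1.203 at 24 h 29 of 40 members were called higher where 21% of all genes were, and AC1.230 has more members called lower than higher at both times.

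The lines differed in how many members responded. At 24 h AC1.112 had 21 members higher and 5 lower (all genes 10.8% and 12.6%, median of members 0.19), and AC1.203 had 29 and 2 (21% and 20.8%, median 0.45). AC1.230 had 10 higher and 16 lower (12.1% and 14.7%, median -0.096), AC1P had 15 and 7 (9.85% and 9.5%, median 0.050), and 293F had 22 and 8 (19.8% and 22.1%, median 0.23). Medians over all genes tested lay between -0.0080 and 0.0055 in these contrasts. Leaving out AC1P 24 h replicate 1 brought the AC1P count of 15 down to 8, and leaving out AC1P 0 h replicate 2 brought it down to 9. The 5 lower in AC1.112 became 3 without its 24 h replicate 3. The calls at 24 h in AC1P of DDIT3, CEBPB, CEBPG, TRIB3, SLC6A9, SLC7A5, SLC1A5 and SLC38A2 each ended without at least 1 library. For DDIT3 the log2 fold change in AC1P was 0.48 with all libraries and 0.33 without AC1P 0 h replicate 3 (adjusted p = 0.205).

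At 72 h AC1.112 had 15 higher and 7 lower (all genes 14.2% and 18.4%), AC1.203 had 24 and 5 (13.9% and 17%), AC1.230 had 12 and 18 (17% and 22.1%), AC1P had 13 and 5 (12.7% and 13.2%) and 293F had 17 and 11 (18.3% and 21.9%). The 7 lower in AC1.112 became 11 without AC1.203 0 h replicate 1, the 5 lower in AC1.203 became 3 without its 0 h or 72 h replicate 3, and the 5 lower in AC1P ranged from 3 to 9 with 1 library left out. The 0 h library AC1.203 replicate 1 had more ATF4 and ASNS than its 2 companions, at 512 against 447 and 441 CPM and at 137 against 110.5 and 113 CPM. AC1.203 gave the highest log2 fold change of the 5 lines for 25 members at 24 h and AC1.230 the lowest for 21, and at 72 h these counts were 20 and 16. The same ranks were not counted over all genes tested, so these counts cannot be read as particular to the members. Responses of the 5 lines differed at 24 h for 37 of the 40 members by the F test of the interaction, against 43.9% of all genes, and at 72 h for 30 members, against 23.2% of all genes. Of these calls, that of CTH at 72 h ended in 43 of the alternatives and that of DDIT4 at 24 h in 25. Which lines differed from which was not tested pair by pair.

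The members called higher in all 5 lines at 24 h were 8, namely CEBPB, DDIT3, DDIT4, PPP1R15A, SESN2, SLC1A4, SLC3A2 and STC2, and CBS was called lower in all 5. Among all genes tested 2.41% were called higher and 2.14% lower in all 5 lines at 24 h. At 72 h 9 were higher in all 5 lines, with CHAC1 and GDF15 added and SLC1A4 gone, and ALDH18A1 and EPRS1 were lower in all 5, the call of EPRS1 in AC1.203 and AC1P and that of CEBPB in AC1.112 each ending without some libraries. These shares were 3.87% and 6.79% of all genes at 72 h. At 24 h 12 members were called higher in at least 1 line and lower in at least 1 other, and at 72 h 8 were, where 8.16% of all genes were so called at 24 h and 2.77% at 72 h. The strongest rises within a line at 24 h were those of CHAC1 in AC1.112 (1.95), AC1.203 (2.34) and 293F (2.29), and of STC2 in AC1.230 (1.25) and AC1P (0.81). The strongest falls were those of GDF15 in AC1.112, AC1.203 and 293F, PSAT1 in AC1.230, and NUPR1 in AC1P (-0.82).

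At 72 h the strongest rises within a line were those of CHAC1 in AC1.112 (1.57) and 293F (1.41), DDIT3 in AC1.203 (1.54), GDF15 in AC1.230 (1.64) and STC2 in AC1P (1.12). The strongest falls were those of ALDH18A1 in AC1.112 (-0.37), ATF4 in AC1.203 (-0.26), PHGDH in AC1.230, WARS1 in AC1P (-0.26) and EPRS1 in 293F (-0.52). NUPR1 rose in AC1.203 at 72 h, with 3.49, 3.75 and 3.73 CPM, against 2.07, 0.628 and 1.07 CPM at 0 h (1.53, SE 0.18). In AC1P it was not called at that time (-0.049, adjusted p = 0.847).

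Before transfection the lines already differed in these genes. At 0 h all 40 members differed between the 5 lines by the F test, as did 80.8% of all genes. The smallest p-values were those of STC2 (adjusted p = 8.33e-41), EPRS1 (adjusted p = 8.39e-38), ASNS (adjusted p = 5.26e-37) and DDIT4 (adjusted p = 3.88e-33). Against 293F, AC1.112 had 14 members higher and 17 lower (all genes 30.4% and 32.2%), AC1.203 had 24 and 14 (28.2% and 29.6%), AC1.230 had 12 and 18 (30.5% and 31.6%) and AC1P had 12 and 21 (30% and 32.4%). These comparisons share the 293F libraries, and those against AC1P share the AC1P libraries.

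**Figure D4:**
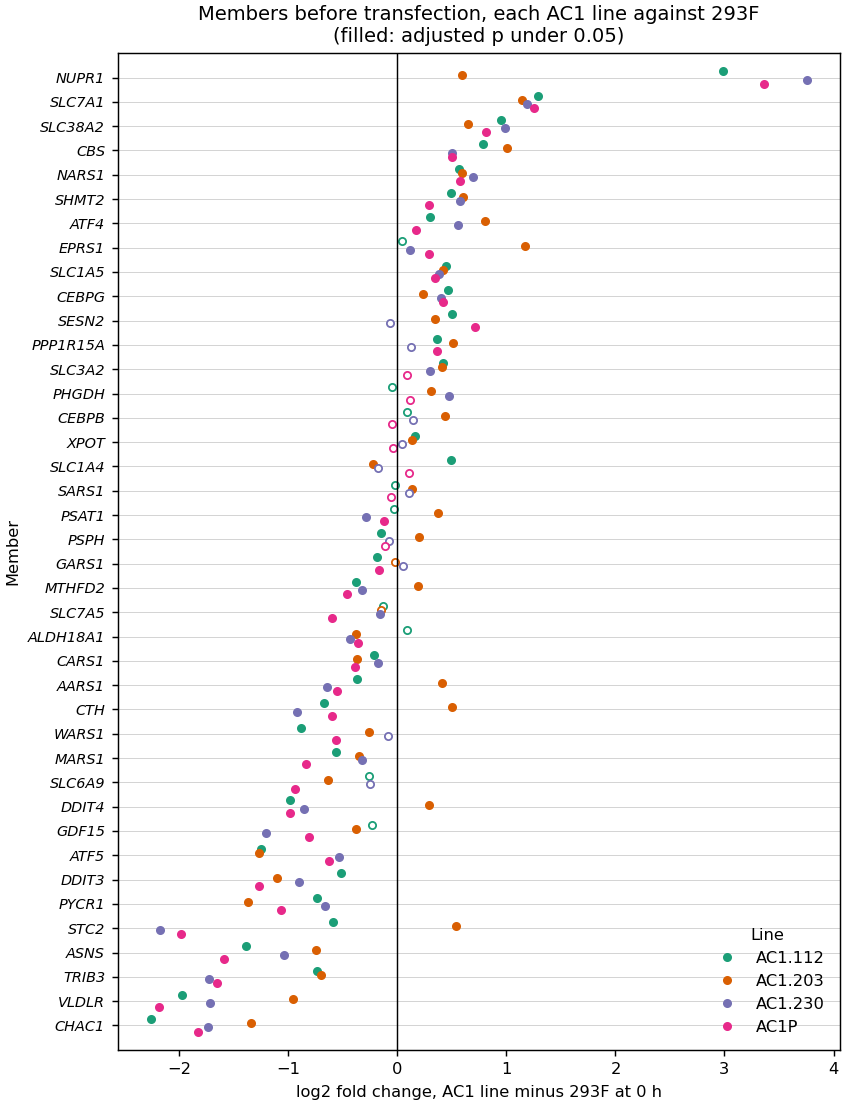
Each point is the log2 fold change of 1 member (rows) between 1 AC1 line and 293F at 0 h, with colour for the line and a filled point where the adjusted p is under 0.05. NUPR1 lies at 0.59 to 3.75, and CHAC1 lies below 0 in all 4 AC1 lines, between -2.26 and -1.34.

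CHAC1 had 0.940, 1.51 and 1.16 CPM in AC1.112, 2.89, 1.59 and 2.27 CPM in AC1.203, 2.06, 1.40 and 1.65 CPM in AC1.230 and 1.13, 1.52 and 2.31 CPM in AC1P, against 4.91, 5.94 and 6.38 CPM in 293F. All 12 libraries of AC1 lines lay below the 3 of 293F, with log2 differences of -2.26, -1.34, -1.74 and -1.83 in the same order. DDIT3 was also lower in all 4, with log2 differences of -0.52, -1.10, -0.90 and -1.27. TRIB3 was lower in all 4 too, with -0.74, -0.70, -1.73 and -1.65. ATF4 mRNA was higher in all 4, by 0.30, 0.80, 0.56 and 0.17. At 0 h the AC1 lines had more ATF4 mRNA than 293F and less of CHAC1, DDIT3 and TRIB3. Other members went the other way from these 3 genes: PPP1R15A was called higher than in 293F in 3 of the 4 AC1 lines and lower in none. The same counts held for SLC3A2.

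ASNS had 76.8, 75.04 and 78.7 CPM in AC1.112, 137, 110.47 and 113 CPM in AC1.203, 98.9, 98.1 and 96.03 CPM in AC1.230 and 64.47, 67.3 and 69.3 CPM in AC1P, against 203, 204 and 197 CPM in 293F. No AC1 library reached 293F, and the log2 differences ran from -1.59 in AC1P to -0.74 in AC1.203. ATF5 was lower in all 4 lines, with log2 differences such as -1.27 in AC1.203 and -1.25 in AC1.112, and VLDLR was lower, at -2.18 in AC1P, -1.98 in AC1.112 and -1.72 in AC1.230. PYCR1 was lowest in AC1.203, at 60.9, 56.4 and 58.9 CPM, against 151, 156 and 150.4 CPM in 293F (-1.37, SE 0.056).

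Higher than in 293F in all 4 AC1 lines were 9 members, namely the factors ATF4, CEBPG and NUPR1, the transporters SLC7A1, SLC38A2 and SLC1A5, the enzymes SHMT2 and CBS, and NARS1. Lower in all 4 were also 9, namely CHAC1, TRIB3, DDIT3, ATF5, ASNS, PYCR1, VLDLR, MARS1 and CARS1. Among all genes tested 15.9% were called higher and 16.3% lower in all 4. NUPR1 had 11.04, 11.6 and 11.53 CPM in AC1.230, 8.29, 8.84 and 8.95 CPM in AC1P and 7.16, 6.61 and 6.16 CPM in AC1.112, against 0.851, 0.616 and 1.08 CPM in 293F, and all 9 of these lay above 293F. The log2 differences were 3.75 (SE 0.17), 3.37 (SE 0.18) and 2.98 (SE 0.18). AC1.203 had 2.07, 0.628 and 1.07 CPM, which overlapped 293F, and its call (0.59, adjusted p = 0.0222) ended without AC1.203 0 h replicate 1 or without 293F 0 h replicate 2. SLC7A1 was higher in all 4 lines by 1.14 to 1.29, with 225, 252 and 231 CPM in AC1.112, against 89.9, 99.96 and 101 CPM in 293F. SLC38A2 was higher by 0.64 to 0.98. SLC1A5 was higher by 0.34 in AC1P to 0.44 in AC1.112, SHMT2 by 0.29 in AC1P to 0.61 in AC1.203, CBS by 0.50 in AC1P to 1.00 in AC1.203, and NARS1 by 0.56 in AC1.112 to 0.69 in AC1.230. SESN2 was higher in AC1P (0.71), AC1.112 (0.50) and AC1.203 (0.34), and was not called in AC1.230 (-0.071, adjusted p = 0.284).

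AC1.203 had the highest 0 h levels of EPRS1, STC2 and DDIT4, with 293F close to it for DDIT4. EPRS1 had 594, 635 and 675 CPM in AC1.203, against 287, 279.6 and 278 CPM in 293F (1.17, SE 0.043), with no overlap. STC2 had 41.3, 38.6 and 39.9 CPM in AC1.203, against 6.54, 6.43 and 8.003 CPM in AC1P and 25.49, 28.3 and 28.6 CPM in 293F. Relative to AC1P it was 5.77-fold higher (log2 fold change 2.53, SE 0.086, adjusted p = 7.87e-35). DDIT4 was higher in AC1.203 than in AC1P (1.28, SE 0.062) and lower than in 293F in the other AC1 lines, at -0.98 in AC1.112, -0.85 in AC1.230 and -0.99 in AC1P.

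Against AC1P, the polyclonal line, members were more often higher than lower in each clone. AC1.112 had 19 higher and 6 lower (all genes 14% and 12.1%), AC1.203 had 25 and 7 (23.1% and 22%) and AC1.230 had 17 and 6 (19.2% and 16.5%). In AC1.112 STC2 (1.40), TRIB3 (0.92) and DDIT3 (0.75) led the rise, and ATF5 (-0.63), NUPR1 (-0.38) and WARS1 (-0.32) were lowest. In AC1.203 VLDLR was also higher (1.227), and NUPR1 (-2.78), ATF5 (-0.65) and SESN2 (-0.37) were lowest. In AC1.230 SLC6A9 (0.69), ASNS (0.54) and MARS1 (0.51) were highest, and SESN2 (-0.78), CTH (-0.32) and SLC1A4 (-0.28) were lowest. CHAC1 was called in none of the 3 clones against AC1P, with log2 differences of -0.44 (adjusted p = 0.176) in AC1.112, 0.49 (adjusted p = 0.0613) in AC1.203 and 0.084 (adjusted p = 0.815) in AC1.230. Leaving out AC1.230 0 h replicate 3 brought the count of 17 higher in AC1.230 down to 11, and leaving out AC1P 0 h replicate 1 did the same.

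Other genes of the pathway were counted from lists of their own, over the mean of lines. Among all genes tested 25.8% were called higher and 27.6% lower at 24 h, and 30.3% and 29.5% at 72 h. These shares apply to every list below, and some of the counts lie near them. Of 12 further ATF4 targets 9 rose and 1 fell at 24 h (median 0.32), and 7 rose and none fell at 72 h (median 0.15). FGF21, a secreted hormone induced by ATF4, had 9 counts over the 15 libraries at 0 h, 49 at 24 h and 176 at 72 h, and 11 of the 0 h libraries had none. INHBE, which codes for an inhibin subunit, had 0.0770 to 1.85 CPM at 0 h (median 0.403), 0.234 to 7.23 CPM at 24 h (median 1.115) and 1.10 to 11.6 CPM at 72 h (median 3.16), and rose by 1.35 at 24 h and by 2.74 at 72 h. ATF3, a factor induced downstream of ATF4, rose by 0.47 at 24 h (SE 0.023), was not called at 72 h relative to 0 h (-0.030, adjusted p = 0.264) and fell by 0.50 at 72 h relative to 24 h.

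Of 15 genes of the eIF2 pathway 5 rose and 7 fell at 24 h (median 0.012), and 3 rose and 9 fell at 72 h (median -0.080). EIF2AK3, which codes for PERK, rose by 0.26 at 24 h, the eIF2B subunit EIF2B2 rose by 0.37 at 24 h and changed by -0.089 at 72 h, and the subunit EIF2B3 changed by -0.19 at 24 h and by -0.47 at 72 h. Of the 12 cytosolic aminoacyl-tRNA synthetases outside the members 2 rose and 6 fell at 24 h, and none rose and 10 fell at 72 h (median -0.19). Of 17 mitochondrial synthetases 4 rose and 9 fell at 24 h, and 3 rose and 11 fell at 72 h.

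Of 14 genes of the XBP1 and ATF6 arm of the unfolded protein response, the arm that enlarges the folding capacity of the endoplasmic reticulum, 5 rose and 6 fell at 24 h (median -0.015), and 3 rose and 7 fell at 72 h (median -0.055). DNAJB9, a chaperone of that arm, rose by 0.52 at 24 h, and the calcium-binding chaperone CALR fell by 0.38. Of 14 genes of mTORC1 amino acid sensing 5 rose and 6 fell at 24 h, and 4 rose and 7 fell at 72 h. The mTORC1 inhibitor DEPTOR fell at 24 h (-0.41). At 24 h all 4 fibroblast markers tested fell (median -1.01). At 72 h relative to 0 h COL1A1 was higher (0.21), COL3A1 (-0.61) and LUM (-0.26) were lower and DCN was not called (-0.25, adjusted p = 0.326), and all 4 were higher at 72 h than at 24 h, by 0.47 for COL3A1 to 1.18 for DCN. Their part in the members' values was not tested.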

How the data were processed

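Poly(A) RNA of 45 libraries was analysed as counts per gene. The authors deposited raw counts, and the submitters' processing notes name HISAT2, Subread and featureCounts and the build GRCh38, with versions, annotation release and strand setting not given in the sources used here. Of 60675 gene IDs, 56558 were given a symbol, and 57055 were in GENCODE 29. Genes were kept by filterByExpr (minimum count 10, minimum total 15), leaving 21242, and scaled by TMM. Contrasts and F tests with 4 degrees of freedom came from 1 quasi-likelihood fit of the 15 groups in edgeR 4.0.16 (limma 3.58.1, R 4.3.3), with Benjamini-Hochberg adjustment over all genes tested and a threshold of 0.05. The SE of a log2 fold change was derived from its test, as the absolute log2 fold change divided by the square root of the F statistic. The fit was also run on simulated data in which genes changed alike in every line and lines did not otherwise differ. That setting is simpler than these data, and its outcome is not reported here. Library totals were 24727028 to 59837051 counts, and a fold change of a member with few counts, such as CHAC1 or NUPR1, carries a larger error.

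The members and gene lists were chosen with earlier results of these data known. Named were ATF4, DDIT3, ASNS, CHAC1 and TRIB3, the called members with the highest and lowest log2 fold changes in each comparison, those with the smallest F test p-values, and up to 3 called genes of each other list. Alternatives were DESeq2 1.42.0, RLE scaling, no filter on low counts, a replicate block, libraries thinned to the smallest total, each library or line left out, and a fit of each line alone. Same-numbered libraries of different groups did not deviate together (mean correlation -0.000855 over 315 pairs of libraries, none over 0.1), and the main fit did not pair them. With pairs of all lines and times pooled, this check cannot exclude that same-numbered libraries shared a culture or handling. Some genes of the marker and neighbour checks are not reported here.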

Additional observations from a re-analysis of the deposited data

Results flagged for a closer look

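Responses that differed between the 5 lines were flagged by the F test of the interaction of line and time, for the 4 members with the smallest p at each time. At 24 h these were PSAT1 (edgeR, adjusted p = 8.57e-23), SESN2 (adjusted p = 1.14e-17), SLC7A5 (adjusted p = 3.22e-17) and ASNS (adjusted p = 5.26e-17). PSAT1 had log2 fold changes of 0.30 in AC1.112, 0.61 in AC1.203, -0.63 in AC1.230, -0.19 in AC1P and 0.17 in 293F. SESN2 was higher in all 5 lines but by different amounts, between 0.32 in AC1.112 and 1.28 in AC1.203. SLC7A5 was lower in AC1.230 (-0.30) and higher in the other 4 lines. At 72 h the 4 were PYCR1 (adjusted p = 3.95e-11), PHGDH (adjusted p = 1.33e-09), ASNS (adjusted p = 2.05e-09) and STC2 (adjusted p = 8.75e-09). PYCR1 was higher in AC1.203 (0.36) and lower in AC1.230 (-0.46), and ASNS was also higher in AC1.203 (0.38) and lower in AC1.230 (-0.30). STC2 rose in all 5 lines, most in AC1.230 (1.58). Which lines differed from which was not tested.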

How the results depend on the processing

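With DESeq2 2 of 573 log2 calls were lost, with RLE scaling 5, with thinned libraries 20 and with no filter on low counts 27, and no direction was reversed in any of these. The replicate block changed 0 of 573 log2 calls and 1 of 120 F tests, CTH at 72 h, where the adjusted p was 0.0534 with the block and 0.0485 without it, a call that ended in 43 alternatives in all (adjusted p 0.0192 to 0.142 over every alternative). Members called lower at 72 h in AC1.203 numbered 5, and 3 both with no filter on low counts and in a fit of that line alone. Leaving out 1 library at a time gave 3 to 6 for that count, 3 to 6 for members lower at 24 h in AC1.112 (5 with all libraries), 7 to 11 for those lower at 72 h in AC1.112 (7), 8 to 15 for those higher at 24 h in AC1P (15), 3 to 9 for those lower at 72 h in AC1P (5) and 11 to 17 for those higher in AC1.230 than in AC1P (17). Among the libraries whose absence gave an extreme were AC1.112 24 h replicate 3, AC1.203 0 h replicates 1 and 3, AC1.203 72 h replicate 3, AC1P 24 h replicate 1, AC1P 72 h replicate 2, AC1.112 0 h replicate 3 and AC1.230 0 h replicate 3, and the count lower at 72 h in AC1P moved by over 1.5 times without any of 14 libraries. Directions reversed when a line was left out of the mean for PSAT1 at 24 h (-0.083 without AC1.203, -0.0044 without AC1.112), MARS1 at 24 h (0.027 without AC1.230), SLC7A5 at 72 h (-0.028 without AC1.203) and MARS1 at 72 h relative to 24 h (0.043 without AC1.203). The cause was not tested. Counting depth limits members with few counts, such as CHAC1 and NUPR1, and the 3 libraries per group limit every call within a line.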
